A study of Mus musculus with 4 samples.

Results

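The genes described here encode the proteins of the cytosolic ribosome and their close paralogs. They were taken from the count tables by symbol alone (Rpl and Rps genes with a number and no suffix or the suffix a, x, l, l1 or al, the stalk genes Rplp0 to Rplp2, and Rpsa), which gave 83 of 31017 rows, 31 for the small and 52 for the large subunit. The counts come from bone marrow monocytes of wild-type C57BL/6 mice, isolated by FACS: 2 libraries at 18 months of age (aged) and 2 at 3 months (young). Every library carries the disease label atherosclerosis, and the labels neither say whether the donors had plaques nor whether the 2 libraries of an age came from separate animals. The p-values thus rest on library-to-library spread that could be technical.

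The ribosome translates messenger RNA with a small subunit, which binds and decodes the message, and a large subunit, which joins amino acids and threads the new protein through an exit tunnel. Each ribosome holds 1 copy of nearly every ribosomal protein, so cells make these proteins in matched amounts. Their messages typically begin with a C followed by a stretch of pyrimidines, the 5' terminal oligopyrimidine (TOP) tract, through which nutrient signalling by mTOR sets how strongly they are translated. In blood formation, inherited loss of 1 copy of certain ribosomal protein genes causes Diamond-Blackfan anaemia, and loss of RPS14 contributes to the anaemia of the 5q- syndrome in humans.

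The sequences around the gene starts are shown for some members whose fall held with each library left out (not Rpl17 or Rps20). They are also shown for some paralogs and their partners (not Rpl7). Each is 30 bases from the RefSeq start windows (GRCm38.p6), 5′ to 3′ on the gene's strand, and capitals mark the longest run that starts with C and holds only C and T between 20 bases before and 50 bases after the annotated start.
Rpl41 (chr10:128549119-128549148, minus): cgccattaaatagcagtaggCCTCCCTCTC
Rps24 (chr14:24490698-24490727, plus): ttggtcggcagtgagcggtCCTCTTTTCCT
Rps23 (chr13:90923142-90923171, plus): tgggtccttcctgcaCCTCCTCTCTCTTTC
Rps3 (chr7:99483671-99483700, minus): ggcgtcattgCTCCCgccctatatacctac
Rps27 (chr3:90213631-90213660, minus): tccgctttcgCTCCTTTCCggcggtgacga
Rps27l (chr9:66946064-66946093, plus): ctcctctccaCTCCTCCCCgccgcctctat
Rpl36a (chrX:134585671-134585700, plus): gcggctctagCCTCTCTCTTTCCgagctgc
Rpl36al (chr12:69184019-69184048, minus): ctctgttcgtCCCTTTCCTgttcggcgcgt
Rpl7l1 (chr17:46782656-46782685, minus): ctctaccccgCCCggtgaggctgcgcaagc
RefSeq starts were found for 63 of the 83 members, with 75 start windows in all. A run of at least 8 such bases lay in 51 of these windows (68%), against 19.3% of 11858 windows of genes tested here and 20.03% of 32841 windows in all. The runs at Rpl41, Rps24 and Rps23 reach the end of the window searched and may be longer. The run was 15 bases long within it at Rps23 and 5 bases long at Rps3, both of which fell. At the 2 members with a positive log2 change it was 3 bases (Rpl7l1) and 9 bases long (Rpl36al). Members with such a run in any window had a median log2 change of -0.34 and those without one -0.31. Other motifs were searched in the whole windows, from 250 bases before to 50 bases after the start. The core of the ETS family motif bound by GABP, CCGGAAG on either strand, lay in 26 member windows (34.7%) against 17.9% of windows of tested genes. The core of the YY1 motif, AAGATGG on either strand, lay in 12 (16.0%) against 7.24%, and TATAAA on either strand in 7 (9.33%) against 7.03%. A match is a description of the letters in these windows.

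Library totals lay between 20159129 and 34278754 counts. Of the 83 members, 81 passed the filter on low counts and were tested among 12035 genes. The members lay on 19 chromosomes, most on chromosome 7 with 14. Both aged libraries were close to each other in the members, whereas the young ones stood apart: 79 of the 81 tested members were higher in young replicate 1, the deepest library, than in young replicate 2. The median member stood 0.064 above the mean of the young libraries in young replicate 1 on the log2 scale and 0.064 below it in young replicate 2, against 0.32 and 0.33 below it in aged replicates 1 and 2 (-0.32 and -0.33). Results that rest on young replicate 1 are therefore given with and without it.

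Ribosomal protein genes were lower in aged monocytes almost without exception. Of the 81 tested members, 49 fell, 0 rose and 32 did not pass the test (edgeR quasi-likelihood, Benjamini-Hochberg adjusted over all genes, threshold 0.05), where 2.89% of all genes tested were called lower, 2.87% higher and 5.77% in either direction. DESeq2 and limma-voom also called 0 higher at the adjusted threshold. At an unadjusted p under 0.05, 1 member was higher in each of edgeR (Rpl7l1), DESeq2 and limma-voom. The fitted log2 change was negative in 79 members and the aged libraries lay below both young libraries in the same number, against 25.7% of all genes tested with this separation (51.6% in either direction) and 50.7% with a negative change. The median log2 change was -0.33 over the members and -0.0044 over all genes tested. At an unadjusted p under 0.05, 75 members were lower, against 11% of genes tested. Without young replicate 1, 7 members passed (Rpl41, Rpl17, Rps27l, Rps24, Rps20, Rps23 and Rps3), the median was -0.25, 0.658% of all genes tested were called lower, and the other 42 had an adjusted p = 0.0522 to 0.404 in edgeR. Without aged replicate 2, 32 passed. In bulk RNA, fewer cells of a type rich in these messages and less of the message per cell cannot be told apart.

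**Figure D1:**
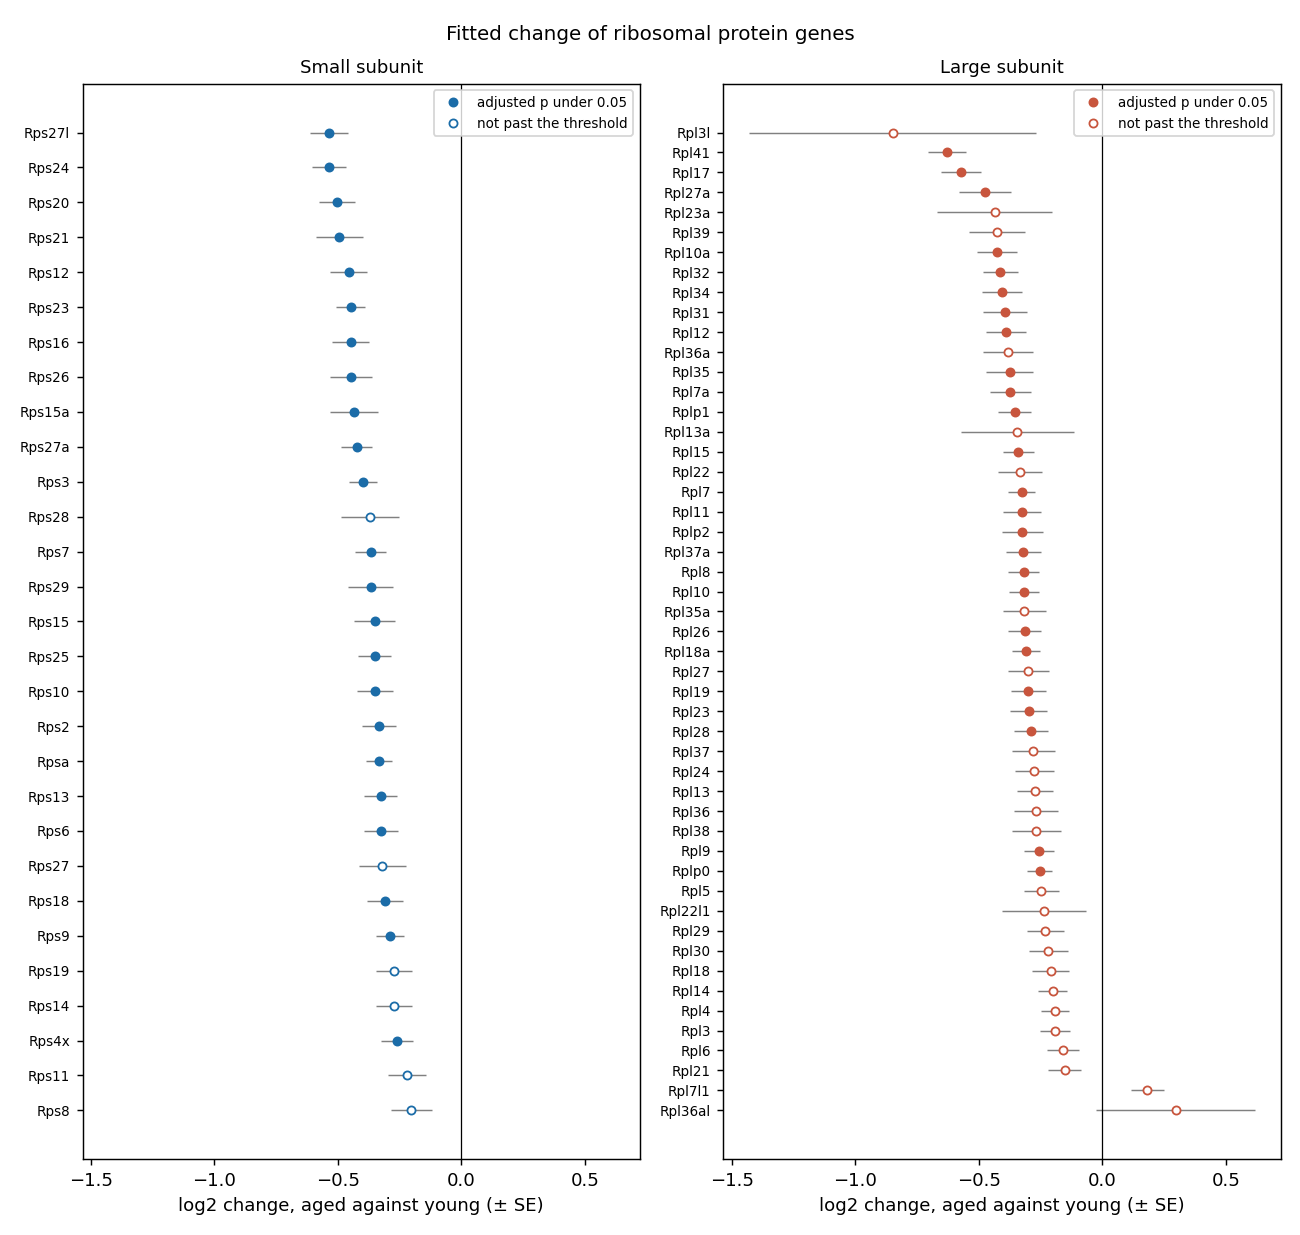
Fitted log2 change of aged against young monocytes (x axis) for small subunit members (left, 29 of the 31 tested) and large subunit members (right, n = 50), ordered by change, with the standard error from 2 libraries per age as bars. Filled points passed an adjusted p of 0.05, and 77 of the 79 points lie left of 0.

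The members together held 1.21% and 1.19% of the counts (aged) against 1.56% and 1.40% (young). Wilson 95% intervals of these shares reached at most 0.0051 percentage points to either side and cover counting error only. The mean share was 1.20% ± 0.014 in aged and 1.48% ± 0.11 in young libraries (SD, n = 2 each), a relative difference of -19.2%. The groups did not overlap, and the exact two-sided permutation test gave p = 0.333, the smallest value that 2 against 2 allows. Without Rplp0 and Rps9, both among the members with the most counts, the relative difference was -19.5%. Mitochondrially encoded genes held 0.0978% of aged and 0.181% of young counts, and leaving them out of the total changed the difference in member share from -0.284 to -0.286 percentage points.

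**Figure D2:**
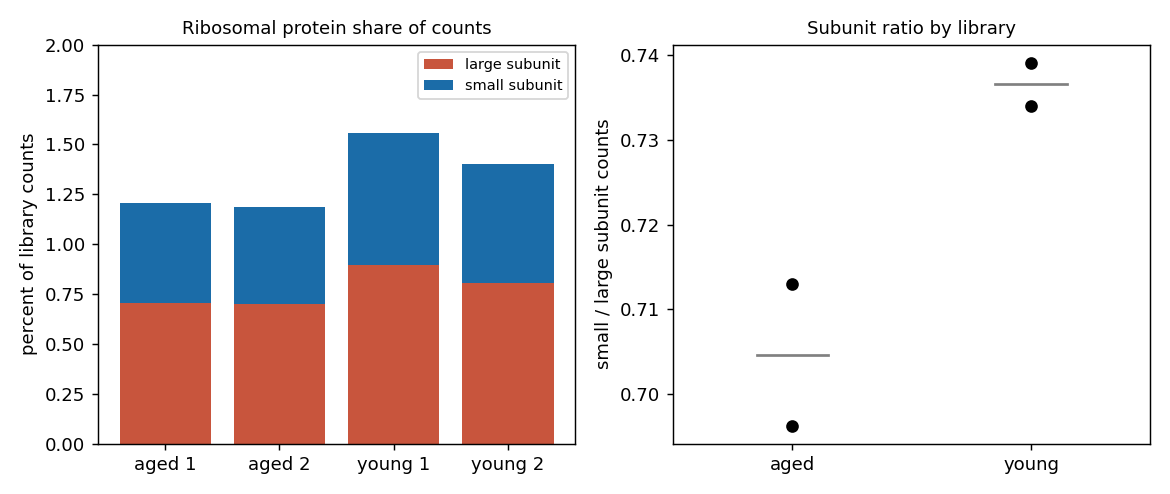
Left, percent of each library's counts (y axis) in large and small subunit genes, as stacked bars for the 4 libraries. Right, summed small subunit counts over summed large subunit counts (y axis, not starting at 0) for each library as a point, with the group mean as a line: the aged libraries stood at 0.713 and 0.696 and the young ones at 0.739 and 0.734.

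Both subunits were lower, the small one by slightly more. All 31 small subunit members had a negative log2 change and 24 of them fell, with a median of -0.35 and a range from -0.54 to -0.20. Of the 50 tested large subunit members 48 were negative and 25 fell, with a median of -0.31. The small subunit held 0.494% ± 0.011 of aged and 0.628% ± 0.049 of young counts, and the large subunit 0.701% ± 0.0036 and 0.852% ± 0.063 (SD, n = 2 each). The ratio of small to large subunit counts, which no scaling of libraries touches, was 0.713 and 0.696 (aged) against 0.739 and 0.734 (young). Its log2 value was lower by 0.064 in aged libraries (-0.064), with no overlap and an exact permutation p = 0.333, again the smallest that the design allows. The difference between the subunits in the number of calls was not tested.

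**Figure D3:**
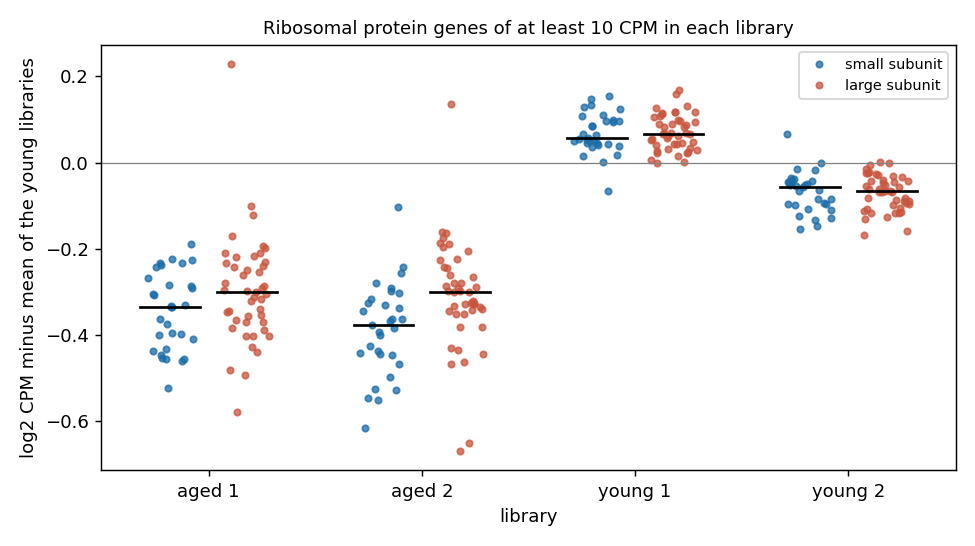
Log2 CPM of each member of at least 10 CPM minus its mean over the young libraries (y axis), in each of the 4 libraries (x axis), for small (blue) and large (red) subunit genes, with medians as black lines. The points of the aged libraries lie below 0 for 75 of the 76 members, and those of young replicate 1 lie mostly above those of young replicate 2.

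Of the 7 members that passed with each library left out, 5 encode small and 2 large subunit proteins. Levels are in CPM, counts scaled to 1e6 per TMM-adjusted library. Rpl41, which encodes the shortest protein of the ribosome (chromosome 10, 128548114 to 128549305 on GRCm38), stood at 109.8 and 103 CPM (aged) against 175 and 154 CPM (young). Its log2 change was -0.63 ± 0.076 (SE, n = 2 per age; edgeR adjusted p = 0.0011), so the level was 35.3% lower. Rps24, a Diamond-Blackfan anaemia gene (chromosome 14, 24487125 to 24496959), stood at 87.1 and 85.6 against 127 and 124 CPM. The libraries of each age were close to each other there, with no overlap between ages, and the log2 change was -0.54 ± 0.067 (edgeR adjusted p = 0.00131). Rpl17, whose protein lines the exit tunnel (chromosome 18, 74998558 to 75003381), gave 64.1 and 57.4 against 91.7 and 88.7 CPM, a log2 change of -0.57 ± 0.081. Rps20, a protein of the small subunit head (chromosome 4, 3831334 to 3835665), gave 96.9 and 90.5 against 136 and 129 CPM, a log2 change of -0.50 ± 0.071. Groups did not overlap in any of these 4 genes, and each passed with every library left out in turn. Rps21 (-0.49 ± 0.095) and Rpl27a (-0.47 ± 0.11) also fell but did not pass without young replicate 1 (edgeR adjusted p = 0.156 and 0.292). Rpl27a was 72.1 CPM in young replicate 1 and 57.9 CPM in young replicate 2, against 46.2 and 47.7 CPM in the aged libraries.

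Along the path of the message through the small subunit, Rps3, Rps2 and Rps9, whose proteins form the entry channel for messenger RNA, all fell. Rps3 (chromosome 7, 99477896 to 99483738) stood at 319 and 325 CPM (aged) against 437 and 411 CPM (young), a log2 change of -0.40 ± 0.057 (edgeR adjusted p = 0.00298). Rps9 stood at 479 and 483 against 608 and 565 CPM (-0.29 ± 0.056) and Rps2 at 250.1 and 252 against 337 and 295 CPM (-0.34 ± 0.069). Rps3 passed with each library left out, whereas Rps2 and Rps9 did not pass without young replicate 1 (edgeR adjusted p = 0.173 to 0.22). At the decoding centre and in the subunit head, Rps23, Rps16, Rps15 and Rps18 fell. Rps23, whose protein reaches into the decoding centre (chromosome 13, 90922958 to 90924950), gave 159 CPM in both aged libraries against 222 and 211 CPM (-0.45 ± 0.060, edgeR adjusted p = 0.002). Both young libraries lay above the aged ones, and it passed with each library left out. Rps16 gave -0.45 ± 0.075, Rps15 -0.35 ± 0.083 and Rps18 -0.31 ± 0.073, and these did not pass without young replicate 1 (edgeR adjusted p = 0.0922 to 0.328), nor did Rps15 and Rps18 without aged replicate 2 (0.0501 to 0.0906). Rps18 also missed the threshold when scaled by library size alone (edgeR adjusted p = 0.0516).

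At the exit side of the message channel, Rps26 fell and Rps14 and Rps28 did not pass. Rps26, another Diamond-Blackfan anaemia gene, gave 99.7 and 99.1 against 147 and 124 CPM (-0.45 ± 0.085), and it did not pass without young replicate 1 (edgeR adjusted p = 0.158). Rps14 stood at 305 and 293 against 387 and 334 CPM (-0.27 ± 0.073, edgeR adjusted p = 0.0555), and its young libraries were further apart than its aged ones. Rps28 gave -0.37 ± 0.12 (edgeR adjusted p = 0.0985). Rps6, the small subunit protein phosphorylated by S6 kinases downstream of mTOR, fell from 207 and 196 CPM in young to 153 and 168 CPM in aged libraries (-0.33 ± 0.068, edgeR adjusted p = 0.0209). Rpsa, which is also known as a laminin receptor, stood at 369.7 and 371 against 471 and 462 CPM (-0.33 ± 0.053, edgeR adjusted p = 0.00519). Its libraries were close within each age, but neither Rpsa nor Rps6 passed without young replicate 1 (edgeR adjusted p = 0.0577 and 0.19). Rps27a, which is made as a fusion with ubiquitin, gave 169.6 and 164 against 232 and 216 CPM (-0.42 ± 0.062) and an edgeR adjusted p = 0.0522 without that library.

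In the large subunit, all 4 genes of the stalk that recruits translation factors and of its base fell. Rplp0, its base protein and the member with the most counts (chromosome 5, 115559467 to 115563727), stood at 658 and 667 CPM (aged) against 789.6 and 787 CPM (young). The 4 values form 2 tight pairs, and the log2 change was -0.25 ± 0.050 (edgeR adjusted p = 0.0172), one of the smaller called falls. The stalk tip genes Rplp1 (144 and 138 against 188 and 172 CPM, -0.35 ± 0.068) and Rplp2 (156 and 149 against 207 and 174 CPM, -0.32 ± 0.083) fell, and so did Rpl12 at the stalk base (-0.39 ± 0.081). None of the 4 passed without young replicate 1 (edgeR adjusted p = 0.121 to 0.404). Rplp0 and Rpl12 were also lost without young replicate 2 (0.0549 for both), and Rplp2, with an adjusted p of 0.0499 in all libraries, without aged replicate 2 (0.115) and with upper-quartile (0.0626) or library size scaling (0.0695).

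Among proteins near the catalytic centre, Rpl8 (208 and 224 against 277 and 261 CPM, -0.32 ± 0.063) and Rpl10, one of the last proteins to join the subunit (274 and 285 against 360.1 and 337 CPM, -0.32 ± 0.059), fell. Rpl3 did not pass, with 371 and 383 against 448 and 411 CPM (-0.19 ± 0.060, edgeR adjusted p = 0.0985). Around the exit tunnel and its rim 5 of 9 members fell, Rpl17, Rpl35, Rpl26, Rpl19 and Rpl31, with a median of -0.37 over the 9. The tunnel protein gene Rpl4 was among the smallest differences, at 459 and 462 against 546 and 507 CPM (-0.19 ± 0.057, edgeR adjusted p = 0.0774), while Rpl39, which lines the same tunnel, gave -0.43 ± 0.11 (adjusted p = 0.0542). Of the pair that carries 5S ribosomal RNA and can bind the p53 regulator Mdm2, Rpl11 fell (85.8 and 88.3 against 115 and 103 CPM, -0.32 ± 0.077, edgeR adjusted p = 0.0374). Rpl5, its partner, stood at 94.5 and 94.4 against 116 and 108 CPM (-0.25 ± 0.070) and did not pass (edgeR adjusted p = 0.0669). Without young replicate 1, Rpl17 was the 1 gene of these groups that passed, while Rpl8 and Rpl10 gave 0.15 to 0.171, Rpl35, Rpl26, Rpl19 and Rpl31 0.248 to 0.392, and Rpl11 0.34 (edgeR adjusted p). Rpl35, Rpl26 and Rpl31 were also lost without aged replicate 2 (0.062 to 0.0924), Rpl19 without aged replicate 1 (0.0664), Rpl26 without young replicate 2 (0.0529) and Rpl35 with upper-quartile (0.0552) or library size scaling (0.06). Rpl11 also missed the threshold without aged replicate 2 (0.0552) and with library size scaling (0.0505).

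Other called members among the smallest p-values were Rps12, a small subunit protein (71.5 and 70.0 against 101 and 93.3 CPM, -0.46 ± 0.075), Rpl32 of the large subunit (281 and 272 against 392 and 342 CPM, -0.41 ± 0.070) and Rps7, whose ages did not overlap either (154 and 153 against 205 and 190.4 CPM, -0.37 ± 0.063). None of the 3 passed without young replicate 1. The smallest negative changes were those of Rpl21 (137 and 127 against 148 and 146 CPM, -0.15 ± 0.066), Rpl6 (156 and 148 against 175 and 165 CPM, -0.16 ± 0.065), Rpl3 and Rpl4, none of which passed. Of 9 Diamond-Blackfan anaemia genes, picked after the values were seen, 5 fell: Rps24, Rps26, Rps7, Rps10 and Rpl11. Those that did not pass included Rps19 (-0.27 ± 0.074, edgeR adjusted p = 0.059), Rpl35a (-0.31 ± 0.088, 0.0639) and Rpl5. All 9 were lower in both aged libraries than in either young one, as were 79 of the 81 tested members and 25.7% of all genes tested. Their median was -0.32, against -0.33 over all members. Of the 5, Rps24 was the 1 gene that passed without young replicate 1, and Rps10 and Rpl11 were also lost without aged replicate 2 (edgeR adjusted p = 0.0508 and 0.0552). Across the 76 members of at least 10 CPM, Spearman's rho with the log2 change was 0.33 for the mean level, 0.16 for transcript length and 0.20 for GC content. These correlations are across genes of the same 4 libraries and genes are not independent replicates.

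In 2 of the paralog pairs the fitted changes had opposite signs. Rpl7l1, a paralog of Rpl7 that acts in the assembly of the large subunit, was the 1 member above 10 CPM with a positive change. It stood at 135 and 126 CPM (aged) against 117 and 113 CPM (young) (0.18 ± 0.068, edgeR adjusted p = 0.153), while Rpl7 fell from 319 and 319.6 to 249.6 and 259.6 CPM (-0.33 ± 0.056, edgeR adjusted p = 0.0083). Rpl7 did not pass without young replicate 1. Within each library, 100 counts of Rpl7 went with 53.9 and 48.6 counts of Rpl7l1 at 18 months against 36.6 and 35.4 at 3 months. The log2 ratio was 0.51 higher in aged libraries, with no overlap (exact permutation p = 0.333, the smallest possible). Rpl36al was the other member with a positive change, from a level of 1.79 and 1.76 CPM in young to 2.03 and 2.35 CPM in aged libraries (0.30 ± 0.32, edgeR adjusted p = 0.645). Its partner Rpl36a stood at 30.6 and 31.9 against 43.3 and 37.9 CPM (-0.38 ± 0.10, edgeR adjusted p = 0.0535). Counts of Rpl36al per 100 of Rpl36a were 6.64 and 7.35 in aged and 4.15 and 4.63 in young libraries. Rps27l fell, and its partner Rps27 did not pass. Rps27l stood at 79.0 and 70.9 against 109 and 109 CPM (-0.54 ± 0.077, edgeR adjusted p = 0.00299), and passed with each library left out. Rps27 gave 141 and 129 against 186 and 151 CPM (-0.32 ± 0.095, edgeR adjusted p = 0.081). The ratio of Rps27l to Rps27 was 55.9 and 55.0 per 100 in aged and 58.4 and 72.2 per 100 in young libraries, so the spread between the young libraries exceeded the gap to the aged ones.

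**Figure D4:**
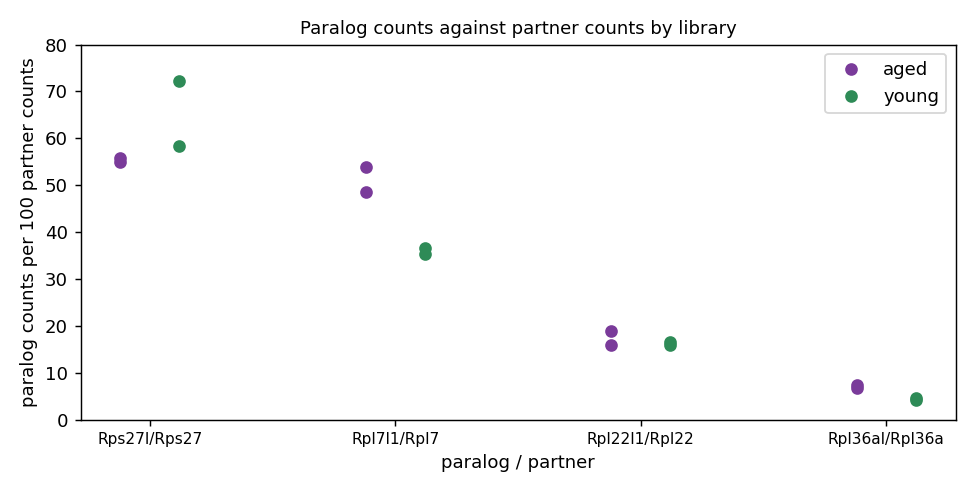
Counts of 4 paralogs per 100 counts of their partner (y axis) in each library, with aged libraries in purple and young ones in green (n = 2 each). The aged libraries lie above the young ones for Rpl7l1 against Rpl7 (48.6 and 53.9 against 35.4 and 36.6) and Rpl36al against Rpl36a (6.64 and 7.35 against 4.15 and 4.63) and below them for Rps27l against Rps27, and the ages overlap for Rpl22l1 against Rpl22.

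The remaining paralogs were scarce. Rpl22l1 stood at 8.25 and 7.27 against 9.75 and 8.47 CPM (-0.24 ± 0.17, edgeR adjusted p = 0.466) beside Rpl22 at 43.6 and 45.9 against 58.9 and 53.6 CPM (-0.33 ± 0.088, 0.0545). Rpl3l, known as a striated muscle form of Rpl3, had 7, 14, 33 and 13 counts in aged replicates 1 and 2 and young replicates 1 and 2, and its fitted change of -0.85 ± 0.58 had the widest error of the members. Rpl39l did not pass the low-count filter, with 3 and 11 counts (aged) against 6 and 8 (young). Rpl10l, known for its role in the testis, was at 0 counts in all libraries, which allows up to 0.0875 to 0.149 CPM per library. The low level of the paralogs Rpl3l, Rpl39l and Rpl10l limits any comparison of ages.

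Ribosomal protein genes have many processed pseudogenes, so the gene a read was counted for is uncertain where copies are near-identical, and the handling of such reads was not stated. In GENCODE M21 transcripts, 50 of the members shared over 50% of the 50-base windows of their principal transcript with transcripts of other genes, among them Rpl35 (95.1%), Rpl5 (93.8%) and Rpl23a (85.7%). Of these 50, 27 fell and 49 were negative, with a median of -0.32. Of the 5 tested members with under 10% of windows shared, 4 fell, among them Rps3 (2.96% shared), Rps20 (7.57%) and Rpl8 (7.86%), and the fifth was the scarce Rpl3l. Of these 4, Rps3 and Rps20 passed without young replicate 1. Rpl23a, a docking site at the tunnel exit, and Rpl13a stood at 3.08 to 4.46 CPM and 3.45 to 4.46 CPM over the 4 libraries, below most other members, and did not pass (-0.43 ± 0.23 and -0.34 ± 0.23). The 9 rows named as pseudogenes of members held 130 and 258 counts (aged) against 350 and 237 (young), against 258803 to 534365 counts for the members. Adding them to their parent genes left 49 members called lower.

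Per length, as CPM per kilobase of the longest coding transcript, the highest members were Rpl13 (684), Rplp0 (534), Rps14 (420), Rps9 (396) and Rps29 (387). With the principal transcript the order began with Rps9 (711), Rpl13 and Rpl32 (622), and with the union of exons with Rplp0 (437), Rpl32 (334) and Rplp1 (322), so the order rests on the choice of transcript. Rpl13 itself stood at 471 and 497 against 629 and 538 CPM (-0.27 ± 0.073, edgeR adjusted p = 0.058), and Rps29 at 139 and 125 against 186 and 154 CPM (-0.37 ± 0.091, edgeR adjusted p = 0.0436). Rps29 did not pass without young replicate 1, without aged replicate 2 or with either upper-quartile or library size scaling. Members that host small nucleolar RNA genes (29) and those that do not (52 tested) had medians of -0.33 and -0.33.

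Of 6 genes for ribosomal or ribosome-bound proteins outside the symbol rule, 2 fell and all 6 had a negative log2 change, with a median of -0.35. Rps3a1, the small subunit protein eS1, fell from 388 and 345 to 293 and 288 CPM (-0.34 ± 0.065, edgeR adjusted p = 0.0146), and Fau, which encodes a ubiquitin-like protein fused to the small subunit protein eS30, from 193 and 174 to 141 and 144 CPM (-0.36 ± 0.069, 0.0132). Neither passed without young replicate 1 (edgeR adjusted p = 0.167 and 0.169). Rack1, the signalling scaffold on the small subunit head, stood at 210.5 and 228 against 238 and 264 CPM (-0.20 ± 0.069, edgeR adjusted p = 0.136). Serbp1, which clamps idle ribosomes, stood at 231 and 224 against 246 and 223 CPM (-0.045 ± 0.065, 0.738). Rps27rt (-0.53 ± 0.35), at under 5 CPM, did not pass.

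Other messages known to carry a 5' TOP tract, mostly translation factors, were tested beside the members. All 18 had a negative log2 change, with a median of -0.20, and 3 fell: Pabpc1, the poly(A)-binding protein (399 and 462 against 551 and 552 CPM, -0.36 ± 0.069), Eef1b2, an exchange factor of elongation (56.96 and 58.6 against 78.1 and 69.9 CPM, -0.36 ± 0.084), and Tpt1, the translationally controlled tumour protein (269 and 280.4 against 319 and 335 CPM, -0.25 ± 0.058). The share called, 3 of 18, is to be read beside 2.89% of all genes. The abundant elongation factor genes Eef1a1 (-0.24 ± 0.062, edgeR adjusted p = 0.0523) and Eef2 (-0.13 ± 0.051, 0.167) did not pass. Without young replicate 1, none of the 3 passed (edgeR adjusted p = 0.0814 to 0.311), and Tpt1 was also lost without young replicate 2 (0.162) and Eef1b2 without aged replicate 2 (0.0527).

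Of 58 ribosome assembly factors, edgeR, DESeq2 and limma-voom each called 0 lower and 2 higher. Those that rose in edgeR were Tcof1, which supports ribosomal RNA transcription (90.0 and 82.3 against 55.7 and 59.8 CPM, 0.58 ± 0.082, edgeR adjusted p = 0.0028), and Rrp1 (129 and 126 against 105 and 108 CPM, 0.26 ± 0.065, 0.0437). Their median was 0.042, and at an unadjusted p under 0.05 in edgeR 5 were lower and 5 higher, where 11% of all genes tested were lower. The nucleolar proteins Ncl (0.064 ± 0.059, edgeR adjusted p = 0.581) and Npm1, also in the TOP list (-0.26 ± 0.074, 0.067), did not pass. Of 15 RNA polymerase I genes 0 passed in edgeR, DESeq2 or limma-voom, with 2 lower at an unadjusted p under 0.05, a median of -0.096 and the smallest p for Taf1d (-0.56 ± 0.18, adjusted p = 0.11). Of 9 chaperone and import genes of ribosomal proteins, the importin gene Ipo5 fell (88.2 and 82.8 against 116 and 102 CPM, -0.35 ± 0.082, edgeR adjusted p = 0.0329). Tcof1 passed with each library left out. Ipo5 was lost without young replicate 1 (edgeR adjusted p = 0.307) or aged replicate 2 (0.0904), and Rrp1 with each library left out (0.0698 to 0.283).

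Among 16 regulators of ribosomal protein production Mtor fell and, as the member in that list, Rps6, with a list median of 0.0022. Mtor, the kinase that controls translation of TOP messages, stood at 24.7 and 28.0 against 39.6 and 34.9 CPM (-0.51 ± 0.11, edgeR adjusted p = 0.025) and did not pass without young replicate 1 (0.24). Myc, a transcription factor that drives ribosome production, stood at 42.5 and 48.7 against 41.9 and 45.9 CPM, with overlapping ages (0.058 ± 0.099, edgeR adjusted p = 0.783). Larp1, which binds TOP messages (-0.039 ± 0.088, edgeR adjusted p = 0.848), Gabpa (0.11 ± 0.084, 0.509) and Yy1 (0.010 ± 0.089, 0.962), whose motif cores were counted above, did not pass. Of 11 ribosome quality control genes 0 passed in edgeR or DESeq2 and 1 was called lower by limma-voom, with 4 lower at an unadjusted p under 0.05 in edgeR and a median of 0.0071. The smallest p among them was that of Gcn1l1, a sensor of stalled ribosomes (-0.54 ± 0.16, edgeR adjusted p = 0.081).

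Markers of other cells moved with age beside the ribosomal proteins. Counts of called markers are to be read beside all genes tested, of which 2.87% were called higher and 2.89% lower. All 10 monocyte markers were detected, 2 rose, among them Csf1r, and 1 fell (Ly6c2), and their summed level was 41629 to 41991 CPM in aged and 39695 to 42016 CPM in young libraries. Of 8 markers of granulocyte-monocyte progenitors, cells upstream of monocytes, 6 fell (Mpo, Elane, Prtn3, Ctsg, Ms4a3 and Kit) and Flt3 rose, with summed levels of 2946 to 2996 CPM in aged and 3578 to 3643 CPM in young libraries and a median of -0.34. Of 10 proliferation genes Mcm7 fell (-0.30 ± 0.063) and 9 were negative, with sums of 1295 to 1353 against 1478 to 1509 CPM. Of 8 tested B lineage markers 5 rose, with sums of 1075 to 1079 against 719 to 726 CPM, 2 of 10 neutrophil markers rose and 2 fell (32089 to 32640 against 31470 to 32756 CPM), 2 of 6 macrophage markers and 1 of 7 dendritic cell markers rose, and 0 of 8 T and NK and 0 of 8 erythroid markers passed in edgeR, DESeq2 or limma-voom. T and NK markers summed to 40.8 to 43.4 CPM in aged and 44.8 to 49.995 CPM in young libraries (1 higher and 1 lower at an unadjusted p under 0.05 in edgeR), and erythroid ones to 377 to 381 and 344 to 383 CPM (3 higher). Dendritic markers summed to 218 to 228 and 198 CPM, and macrophage markers to 260.1 to 269 and 242 to 247 CPM. No marker in these lists was at 0 in all libraries. Of the 7 progenitor genes called, Elane and Ms4a3 passed without young replicate 1, and Mpo was also lost without aged replicate 2 or young replicate 2. Mcm7 did not pass without either young library (edgeR adjusted p = 0.16 and 0.0645), and of the 5 B lineage genes Igkc and Ighm passed with each library left out. The part of these cells in the lower ribosomal protein messages was not tested.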

How the data were processed

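Total RNA of sorted bone marrow monocytes was sequenced as strand-marked, oligo-dT selected libraries, per the labels' protocols. For each library the authors deposited 1 table of raw counts by gene symbol. Tools listed in the submitters' processing notes, with no roles, are HTSeq, STAR 2.5.3, cutadapt and DESeq2, with the build mm10. Not given in the sources used here: the annotation, the strand setting and the handling of multiply mapped reads.

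Genes were kept by filterByExpr (minimum count 10, minimum total 15), scaled with TMM and tested two-sided for age with edgeR 4.0.16 (quasi-likelihood F-test), adjusted over 12035 genes at 0.05, in R 4.3.3. Standard errors are the log2 change over the square root of F. Replicate numbers were not used as a block. Alternatives were other scalings and filters, DESeq2 1.42.0, limma-voom (limma 3.58.1), the block, each library left out, pseudogene rows added, and GC content and length offsets (splines with 5 degrees of freedom). Positions and lengths come from GENCODE M21, start windows from RefSeq; 50-base windows were matched on both strands. The procedure was run once on simulated counts for 4 such libraries, with 50 genes changed at each fold. It recovered 9 of 50 genes changed 1.25-fold, 31 of 50 changed 1.5-fold and 46 of 50 changed 4-fold. False calls numbered 20 among 11877 genes tested. Members with small changes could thus be missed. The members and lists were chosen with earlier results of these data known, and role groups, the Diamond-Blackfan genes and groupings by sequence after the values were seen. Named are called members (up to 15 per direction, and others of the role groups), the 4 largest and smallest changes, the most abundant, paralogs, Rpsa, Rps6, Rpl5, Rpl11 and the stalk, and from other lists up to 4 called genes per direction or the smallest p; names beyond this were chosen after their values were seen. Results for certain genes are not reported here.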

Additional observations from a re-analysis of the deposited data

How the results depend on the processing

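The median change of the members stayed negative under all 15 alternatives, from -0.40 to -0.25, and no member changed sign against its value in all libraries. The 49 members called lower numbered 42 to 55 under other scalings, DESeq2, limma-voom, a 1 CPM filter, a fit of TMM without the members and with pseudogene rows added, 65 with GC content and length offsets and 69 without a low-count filter. Of all genes tested, 2.43% to 3.45% were called lower under the settings that gave 42 to 55 members. The share was 3.15% with the offsets and 4.58% of 17314 genes without the filter, against 2.89% in the main fit. With each library left out the count ran from 7 (without young replicate 1) to 58, and was 32 without aged replicate 2; these fits have 3 libraries, and the lone library of an age is assumed to vary like the other pair. The median ran from -0.40 to -0.25 over the members, -0.43 to -0.29 in the small and -0.37 to -0.24 in the large subunit over the libraries left out. No alternative moved the median of all genes by more than 0.013 on the log2 scale. With the replicate number as a block, 73 members were called lower and 1 higher (Rpl7l1). Calls then rose among all genes too, with 8.44% of 12035 called lower against 2.89% without the block, and 801 called higher against 346. Nothing in the labels pairs the numbers, and deviations of same-numbered libraries correlated at 0.094 across genes. The difference in member share of counts ran from -0.364 to -0.205 percentage points, and the log2 ratio of small to large subunit counts from -0.081 to -0.047. The difference between ages in the log2 ratio of Rpl22l1/Rpl22 (0.097) turned to -0.032 without aged replicate 1 and ran to 0.23 over the libraries left out, and that in the log2 ratio of Rpl39l/Rpl39 (0.31) turned to -0.70 without aged replicate 2 and -0.46 without young replicate 1 and ran to 1.32. For the members under 10 CPM, depth limits what could be called. The cause of the smaller number of calls without young replicate 1 was not tested.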
